A study of Mus musculus with 8 samples.

Results

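The S100 proteins and the annexins are families of calcium-regulated proteins that act at cell membranes and on the cytoskeleton. The 10 genes described were taken by symbol, 5 of each family, from the 21878 genes of the table. They were S100a4, S100a6, S100a10, S100a11 and S100b, and Anxa1, Anxa2, Anxa3, Anxa5 and Anxa6. RNA was sequenced from brain astrocytes isolated from newborn (P0) wild-type C57BL/6 mice. There were 4 libraries of cells treated with a cocktail of interleukin-1α (IL-1α), tumor necrosis factor α (TNFα) and C1q, and 4 libraries of untreated cells. The treatment was meant to bring the cells into a reactive state marked by C3d, a product of complement component C3. The labels give neither dose nor duration. They also do not say if the 4 libraries of a group were from separate cultures or animals, so that p-values here reflect library-to-library spread that could be technical only.

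S100 proteins are EF-hand calcium sensors that work as dimers: calcium opens a face that grips a partner protein. Annexins hold a repeated core that binds acidic phospholipids when calcium rises, and a variable N-terminal tail that in some members is gripped by an S100 dimer. The best known complexes are S100A10 with annexin A2, which does not need calcium and gathers plasminogen at the cell surface, and S100A11 with annexin A1. In the brain S100B is a classical marker of astrocytes, and several of the other members are known from reactive glia, ependyma and meninges.

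Promoter sequences of 7 of the 10 genes, the 250 bases before the annotated start, were taken from RefSeq (GRCm38.p6, the assembly that mm10 names). S100a10, Anxa3 and Anxa6 were not among the 7. The promoters of S100a6, S100b and Anxa5, which also fell, held no match of the letters marked below and are not shown. Sequences with a match are shown for 3 genes that were lower with the cocktail (S100a11, Anxa2 and S100a4) and for Anxa1, the gene that did not pass the test. Each runs 5′ to 3′ on the strand of its gene, and capitals mark the letters TGANTCA, bound by AP-1 (the Fos and Jun factors), and TATAAA, the TATA box.
S100a11, chr3:93520246-93520495, plus strand: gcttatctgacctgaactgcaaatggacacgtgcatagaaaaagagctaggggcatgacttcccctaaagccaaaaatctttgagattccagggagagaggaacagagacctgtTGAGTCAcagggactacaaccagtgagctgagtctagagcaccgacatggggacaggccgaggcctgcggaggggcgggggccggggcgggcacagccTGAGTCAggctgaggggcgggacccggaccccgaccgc
Anxa2, chr9:69453433-69453682, plus strand: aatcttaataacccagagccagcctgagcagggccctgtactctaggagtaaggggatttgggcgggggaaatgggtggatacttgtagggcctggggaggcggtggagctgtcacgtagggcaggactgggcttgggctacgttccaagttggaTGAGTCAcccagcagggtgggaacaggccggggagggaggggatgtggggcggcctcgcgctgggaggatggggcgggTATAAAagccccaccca
S100a4, chr3:90603520-90603769, plus strand: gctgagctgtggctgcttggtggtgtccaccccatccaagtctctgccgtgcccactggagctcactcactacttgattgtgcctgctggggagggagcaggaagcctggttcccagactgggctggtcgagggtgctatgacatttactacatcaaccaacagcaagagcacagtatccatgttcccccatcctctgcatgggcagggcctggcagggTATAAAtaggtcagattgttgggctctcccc
Anxa1, chr19:20390672-20390921, minus strand: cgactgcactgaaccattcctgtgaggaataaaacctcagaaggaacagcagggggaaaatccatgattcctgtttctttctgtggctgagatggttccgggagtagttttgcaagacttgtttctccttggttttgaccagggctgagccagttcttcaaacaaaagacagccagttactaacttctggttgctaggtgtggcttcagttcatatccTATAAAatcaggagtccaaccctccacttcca

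TGANTCA, searched on both strands, stood in 2 of the 7 promoters, at 2 places in S100a11 (136 and 38 bases before the start) and at 1 in Anxa2 (95 bases before it). Over all 32851 promoters of this length 6.75% held it. TATAAA, searched on the strand of the gene, stood in Anxa1, Anxa2 and S100a4, against 7.59% of all promoters. GGAATG, the core bound by TEAD factors, stood in Anxa1 alone of the 7, read on the other strand, against 12.6% of all promoters. The NF-kB consensus was found in 0 of the 7, against 3.9% of all. The motifs did not overlap one another. These are matches of letters in a window, and no binding was measured.

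Values were FPKM, the fragments counted on a gene scaled to the length of the gene and to the total of the library. Totals lay between 19195898 and 20640490 fragments a library. All 8 astrocyte markers examined were above the test's minimum of 1 FPKM in every library. Their summed level was 845 to 872 FPKM in cocktail and 1051 to 1187 FPKM in untreated libraries. By the test described below, 2 of the 8 (Aqp4 and Slc1a2) rose and 6, Gfap among them, fell. Of all genes tested 26.6% were called higher and 41.1% lower. Slc1a3, which fell, had overlapping groups, at 217 to 232 FPKM in cocktail and 226 to 272 FPKM in untreated libraries. Cocktail libraries 1 and 2 differed from cocktail libraries 3 and 4: a chi-square of fragments per gene was 2.37 and 2.62 within these pairs and 4.29 to 7.08 between them, where sampling noise alone gives 1. Untreated libraries compared with each other gave 2.19 to 4.87. The highest of these, for untreated libraries 2 and 4, lay within the range between the cocktail pairs. The cultures were read in bulk, so fewer cells of a type and less RNA per cell cannot be told apart.

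With the cocktail 8 of the 10 genes fell, 1 rose and 1 did not pass the test, where 67.7% of all genes tested were called in one direction or the other. The call was an adjusted p under 0.05 in limma on log2(FPKM + 1), Benjamini-Hochberg adjusted over all 11845 genes tested. Of all genes tested 41.1% were lower and 26.6% were higher by the same call. The median log2 change was -0.61 over the 10 genes and -0.05 over all tested genes. All 10 passed the filter on low values, but S100b passed it through the untreated libraries alone (0 of 4 cocktail and 4 of 4 untreated libraries reached 1 FPKM). In 9 of the 10 genes no cocktail library lay within the untreated range or the reverse, 8 of them lower and 1 higher. The same held for 62.7% of all genes tested, with 38.5% lower and 24.1% higher. When libraries were rescaled by median ratios, the rises made up 49.8% of all calls in the series against 39.3% as deposited. The 10 genes kept 8 falls and 1 rise under that scaling, which moved the median change of all genes by 0.06.

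**Figure D1:**
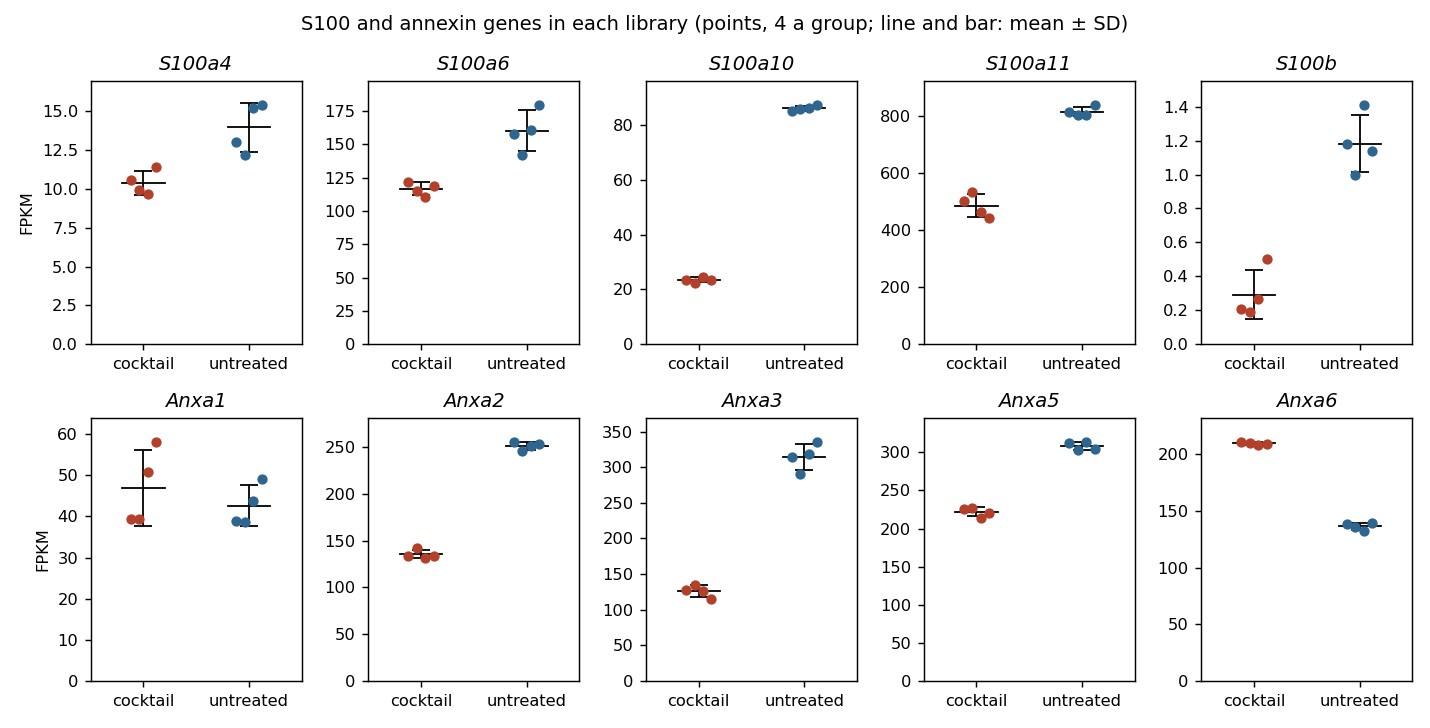
FPKM of each of the 10 genes (vertical axes, each from 0) in the 4 cocktail libraries (left) and the 4 untreated libraries (right), with a point for each library and a line and bar for the mean ± SD. S100a10 stood at 22.4 to 24.7 FPKM with the cocktail and 85.0 to 87.3 FPKM without it, Anxa6 was higher with the cocktail, and the groups overlapped for Anxa1.

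S100a10 encodes p11, the S100 protein that has lost calcium binding and stays in the active shape. It had 23.6, 22.4, 24.7 and 23.3 FPKM in cocktail libraries 1 to 4, against 85.0, 85.9, 86.3 and 87.3 FPKM in untreated libraries 1 to 4. Every cocktail library was below every untreated one, and the spread within a group was small, with means of 23.5 ± 0.931 FPKM in cocktail and 86.1 ± 0.928 FPKM in untreated cells (SD, n = 4 each). Cocktail cells thus had a level 3.66-fold lower, and the log2 change was -1.83 (SE 0.0309, adjusted p = 5.5e-13 in limma). It was the 70th largest fall of the 11845 genes tested, and 4.56% of all tested genes had a log2 change of -1 or less. The gene lies on chromosome 3 from 93555117 to 93564645 of GRCm38.

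S100a11, also called calgizzarin, was the most abundant S100 gene per length in both groups. Its levels were 501, 532, 462 and 443 FPKM in cocktail libraries 1 to 4, against 811, 803, 803 and 837 FPKM in untreated libraries 1 to 4. The groups did not overlap, and cocktail libraries 3 and 4 were lower than 1 and 2. The log2 change was -0.75 (SE 0.0497, adjusted p = 6.5e-08 in limma). The gene lies on chromosome 3 from 93520496 to 93526288. A processed pseudogene, S100a11-ps on chromosome 12, could have shared fragments with it, so its level is uncertain to that extent.

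S100a6, or calcyclin, is known from proliferating cells and binds the protein of Cacybp. It stood at 122, 115, 110.5 and 119 FPKM in cocktail libraries and at 158, 142, 161 and 179.6 FPKM in untreated libraries. All cocktail libraries were below all untreated ones, which spread more widely (log2 change -0.45, SE 0.0593, limma adjusted p = 3.0e-05). S100a4, or metastasin, binds the heavy chain of nonmuscle myosin IIA and is widely used as a fibroblast marker. It had 10.6, 9.90, 9.64 and 11.4 FPKM in cocktail libraries against 13, 12.2, 15.2 and 15.4 FPKM in untreated libraries. The highest cocktail library, at 11.4 FPKM, was just below the lowest untreated one, at 12.2 FPKM, and the log2 change was -0.39 (SE 0.0728, adjusted p = 4.9e-04 in limma). GENCODE places Gm42674 over 2115 bases of S100a4 on the same strand, so its fragments could be shared.

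S100b was close to the lower limit of the test in this culture. It had 0.210, 0.187, 0.264 and 0.504 FPKM in cocktail libraries against 1.18, 1.00, 1.41 and 1.14 FPKM in untreated libraries. These levels rested on 6 to 17 fragments in cocktail and 32 to 47 fragments in untreated libraries, so that the counting error was large beside that of the other genes. The groups did not overlap, and the mean was 4.06-fold lower with the cocktail, at 0.291 ± 0.146 FPKM in cocktail and 1.18 ± 0.169 FPKM in untreated cells (SD, n = 4 each). The log2 change was -0.76 with a standard error of 0.0874 on the log2(FPKM + 1) scale (limma, adjusted p = 9.0e-06), which understates it at this level, and -2.06 in limma voom on whole fragments. S100b lies on chromosome 10 from 76253836 to 76261319. Dip2a, at 10.7 FPKM in cocktail and 15.2 FPKM in untreated cells, overlaps 1731 bases of it on the other strand. The sources used here do not say if strand was used in counting, so fragments of the pair could have been mixed.

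Of the summed FPKM of the 5 S100 genes, S100a11 held 76.2% ± 1.67 in cocktail and 75.7% ± 0.953 in untreated libraries (SD, n = 4 each). S100a10 held 3.72% ± 0.341 in cocktail libraries, against 8.02% ± 0.188 in untreated libraries (SD, n = 4 each). The order per length was S100a11, S100a6, S100a10, S100a4 and S100b in both groups, and no neighbours in it overlapped. The summed level was 635 ± 39.5 FPKM in cocktail cells, against 1075 ± 32.1 FPKM in untreated cells (SD, n = 4 each; no test was made on the sum).

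Anxa3, the annexin with the largest fall, is a membrane-binding protein seen in microglia and in injured nervous tissue. Its levels were 128, 135, 126 and 115 FPKM in cocktail libraries, against 314, 290.5, 318 and 336 FPKM in untreated libraries. All cocktail libraries were below all untreated ones. The log2 change was -1.32 (SE 0.0514, adjusted p = 5.4e-10 in limma), the 242nd largest fall of all genes tested. It lies on chromosome 5 from 96793385 to 96845968, where GENCODE places Gm42603 over 2146 bases of it on the same strand. Microglial markers are described with Anxa1, and the part of microglia in the level of Anxa3 was not tested.

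Anxa2 encodes the partner of p11, which joins membranes to actin. It had 134, 142, 132 and 134 FPKM in cocktail libraries, against 256, 246, 251 and 254 FPKM in untreated libraries. The groups lay far apart relative to their spread, at 135 ± 4.42 FPKM in cocktail and 252 ± 4.33 FPKM in untreated cells (SD, n = 4 each), with a log2 change of -0.89 (SE 0.0287, adjusted p = 9.8e-11 in limma). Anxa2 lies on chromosome 9 from 69453683 to 69491792, and an antisense gene, Gm16144, overlaps 2570 bases of it. Anxa5, whose protein binds exposed phosphatidylserine and is used to stain dying cells, stood at 226, 227, 214 and 221 FPKM in cocktail libraries and at 312, 303, 314 and 304 FPKM in untreated libraries. The cocktail libraries were again all lower (log2 change -0.47, SE 0.0274, limma adjusted p = 1.9e-08).

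Anxa6 moved the other way. It encodes a large annexin with a duplicated core that acts in endosome traffic and membrane cholesterol. It had 211, 209.7, 208 and 209 FPKM in cocktail libraries, against 138, 136, 132 and 139 FPKM in untreated libraries. The means were 209 ± 1.23 FPKM in cocktail and 136 ± 3.06 FPKM in untreated cells (SD, n = 4 each), and every cocktail library lay above every untreated one. The log2 change was 0.62 (SE 0.0246, adjusted p = 6.4e-10 in limma), the 852nd largest rise of all genes tested. Anxa6 lies on chromosome 11 from 54978953 to 55033471.

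Anxa1 encodes annexin A1, a protein induced by glucocorticoids that limits inflammation through formyl peptide receptors. It had 39.3, 39.4, 50.7 and 58.2 FPKM in cocktail libraries 1 to 4, against 38.8, 38.7, 43.8 and 49.2 FPKM in untreated libraries 1 to 4. The groups overlapped, and the log2 change of 0.12 with a standard error of 0.119 did not pass the test (limma, adjusted p = 0.38). Cocktail libraries 1 and 2 were below 3 and 4, with means of 39.3 and 54.4 FPKM. Untreated libraries 1 and 2 were also below untreated libraries 3 and 4. Each cocktail library was above the untreated library of the same number. Without cocktail libraries 1 and 2 the log2 change was 0.35 and was called (limma, adjusted p = 0.0070). Without cocktail libraries 3 and 4 it was -0.11 (limma, adjusted p = 0.29). Both fits kept all untreated libraries, so they set part of the cocktail libraries against untreated libraries of every number. The split of the cocktail libraries was not particular to Anxa1. These pairs of cocktail libraries did not overlap for S100a11, S100b, Anxa3, Anxa5 and Anxa6 either. Of these genes only S100b, on few fragments, was higher in cocktail libraries 3 and 4, with a ratio of 1.94 against 1.38 for Anxa1. For Anxa6 the ratio was 0.991, a very small difference. The share of all genes whose pairs did not overlap was not counted, so the split says nothing particular of the genes named. Anxa1 lies on chromosome 19 from 20373434 to 20390671, and the noncoding gene 1500015L24Rik overlaps it on the other strand.

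The summed level of microglial markers moved with the same split of the cocktail libraries. Over 10 genes it was 15.9, 16.6, 35.4 and 47.5 FPKM in cocktail libraries 1 to 4, against 13.2, 12.1, 13.5 and 11.5 FPKM in untreated libraries 1 to 4. All 5 testable markers rose, where 26.6% of all genes tested were called higher, but the groups overlapped for Csf1r and Tyrobp. None of the 10 was at 0 in every library, and P2ry12 and Tmem119 were under 1 FPKM in every library. These 2 genes did not follow the split. P2ry12 had 0.135, 0.0801, 0.151 and 0.114 FPKM in cocktail libraries 1 to 4, and Tmem119 had 0.474, 0.611, 0.443 and 0.872 FPKM. In the untreated libraries Anxa1 ranged from 38.7 to 49.2 FPKM while the microglial sum stayed between 11.5 and 13.5 FPKM. The part of microglia in the level of Anxa1 was not tested.

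**Figure D2:**
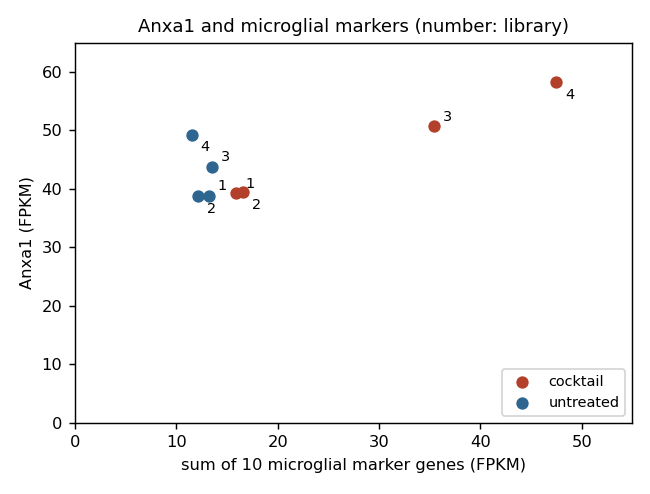
Anxa1 (FPKM, vertical axis) against the summed FPKM of 10 microglial marker genes (horizontal axis) in each cocktail and untreated library, numbered as labelled. Cocktail libraries 3 and 4 had the highest values of both, at 50.7 and 58.2 FPKM of Anxa1, and untreated library 4 had 49.2 FPKM of Anxa1 with the lowest microglial sum.

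The order of the annexins per length differed between the groups. In cocktail cells it ran from Anxa5 at 222 and Anxa6 at 209 to Anxa2 at 135, Anxa3 at 126 and Anxa1 at 46.9 FPKM, and the libraries of Anxa2 and Anxa3 overlapped. In untreated cells it ran from Anxa3 at 315 and Anxa5 at 308 to Anxa2 at 252, Anxa6 at 136 and Anxa1 at 42.6 FPKM, and the libraries of Anxa3 and Anxa5 overlapped. Anxa6 held 28.3% ± 0.324 of the summed FPKM of the 5 annexins in cocktail libraries and 12.9% ± 0.404 in untreated libraries (SD, n = 4 each). For Anxa3 these shares were 17.0% ± 0.984 in cocktail and 29.8% ± 1.00 in untreated libraries (SD, n = 4 each).

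The transcripts of the binding partners did not keep their proportions. The ratio of S100a10 to Anxa2 in FPKM was 0.176, 0.158, 0.188 and 0.174 in cocktail libraries, against 0.332, 0.349, 0.344 and 0.343 in untreated libraries. The log2 ratio differed by -0.98 (cocktail minus untreated), with all 4 cocktail libraries below all untreated ones, and an exact two-sided permutation test gave p = 0.0286, the smallest that 70 assignments allow. The ratio of S100a11 to Anxa1 was 12.7, 13.5, 9.11 and 7.62 in cocktail libraries, against 20.9, 20.8, 18.3 and 17.0 in untreated libraries, a log2 difference of -0.88 (exact two-sided permutation test, p = 0.0286). Both had an adjusted p of 0.0286 over the 2 ratios (exact permutation test). A ratio within a library does not depend on the scaling of the library. The ratio with Anxa1 also spread with the split of the cocktail libraries, its exact permutation p was 0.0571 without untreated library 1 or without untreated library 2, and its difference was -1.20 without cocktail libraries 1 and 2 and -0.55 without 3 and 4.

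**Figure D3:**
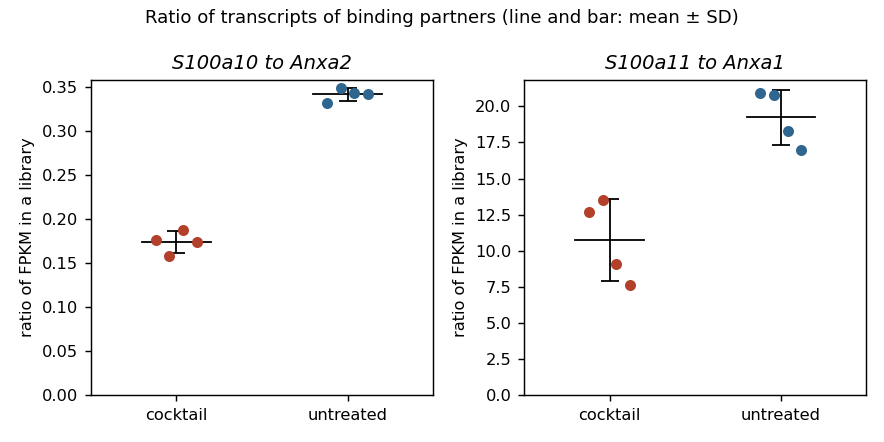
Ratio of S100a10 to Anxa2 and of S100a11 to Anxa1 in FPKM (vertical axes, each from 0) in the 4 cocktail and the 4 untreated libraries, with the mean ± SD. All cocktail libraries lay below all untreated ones in both ratios, with means of 0.174 in cocktail and 0.342 in untreated libraries for S100a10 to Anxa2, and of 10.7 in cocktail and 19.3 in untreated libraries for S100a11 to Anxa1.

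Of 12 further S100 genes 3 could be tested, and S100a13 and S100a1 rose while S100a16 fell. The shares over all genes tested were 26.6% called higher and 41.1% called lower. S100a13, which takes part in the export of fibroblast growth factor 1 and interleukin-1α, had 48.5 ± 2.85 FPKM in cocktail and 28.7 ± 1.07 FPKM in untreated cells (SD, n = 4 each), a log2 change of 0.74 (SE 0.0430, adjusted p = 2.0e-08 in limma). S100a1, best known from heart and skeletal muscle, had 86.3 ± 5.49 FPKM in cocktail and 70.1 ± 3.14 FPKM in untreated cells (SD, n = 4 each; log2 change 0.29, limma adjusted p = 1.1e-04). S100a16 had 41.3 ± 1.83 FPKM in cocktail and 45.8 ± 1.16 FPKM in untreated cells (SD, n = 4 each; limma, adjusted p = 0.003), a call that did not hold once libraries were rescaled (adjusted p = 0.066 in limma). By RefSeq positions S100a1 and S100a13 overlap by 98 bases, but a search of GENCODE gave no overlap for either gene. Whether they shared fragments is therefore uncertain. S100a5 and S100z were listed at 0 in all 8 libraries.

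The S100 genes of chromosome 3 stood in a cluster of 14, spread over 3.05 Mb of GRCm38 from 90511034 to 93564645. In order they were S100a1, S100a13, S100a14, S100a16, S100a3, S100a2, S100a4, S100a5, S100a6, S100a7a, S100a8 and S100a9, then a gap of 2825 kb to S100a11, and S100a10 28.8 kb beyond it. Of the 7 that could be tested the first 2, S100a1 and S100a13, were higher and the other 5 were lower. Of all genes tested 26.6% were called higher and 41.1% lower. The fall of S100a16, among the 5, was not called after rescaling, and no test of position was made. The neighbours S100a11 and S100a10 both fell, with log2 changes of -0.75 and -1.83. Between S100a16 and S100a6, the genes S100a3, S100a2 and S100a5 were below the filter.

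**Figure D4:**
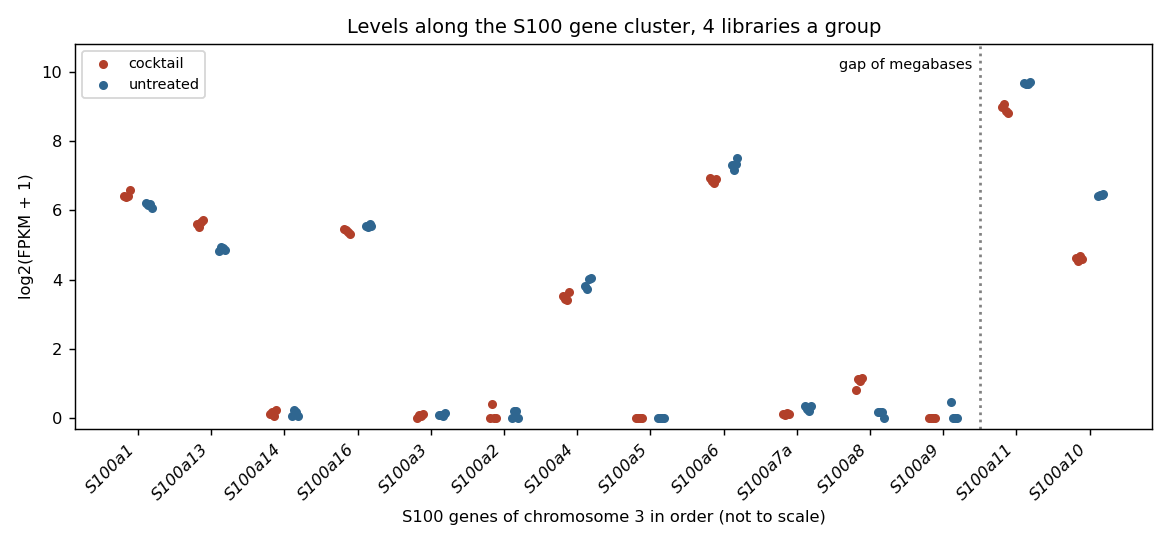
Levels of 14 S100 genes of chromosome 3 in their order along it (horizontal axis, not to scale) as log2(FPKM + 1) in each cocktail and untreated library. S100a1 and S100a13 were higher with the cocktail, S100a4, S100a6, S100a11 and S100a10 were lower, and 7 genes did not pass the filter of 1 FPKM in at least 4 of 8 libraries.

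Of 7 further annexins 4 could be tested, and 3 fell, where 41.1% of all genes tested were called lower. Anxa11, which links RNA granules to moving lysosomes, had 9.12 ± 0.275 FPKM in cocktail and 16.6 ± 1.01 FPKM in untreated cells (SD, n = 4 each), a log2 change of -0.80 (SE 0.0448, adjusted p = 1.4e-08 in limma). Anxa9 had 1.58 FPKM in cocktail and 2.37 FPKM in untreated cells (log2 change -0.38, limma adjusted p = 5.5e-05). Anxa7 had 48.1 FPKM in cocktail and 51.9 FPKM in untreated cells (log2 change -0.11, limma adjusted p = 0.0045), and its call too did not hold after rescaling (adjusted p = 0.15 in limma). Anxa4 stood at 18.2 FPKM in cocktail and 16.9 FPKM in untreated cells and did not pass (limma, adjusted p = 0.062), but was called higher after rescaling (limma, adjusted p = 0.0051), without cocktail library 1 (0.035) and without cocktail libraries 1 and 2 (0.02).

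**Figure D5:**
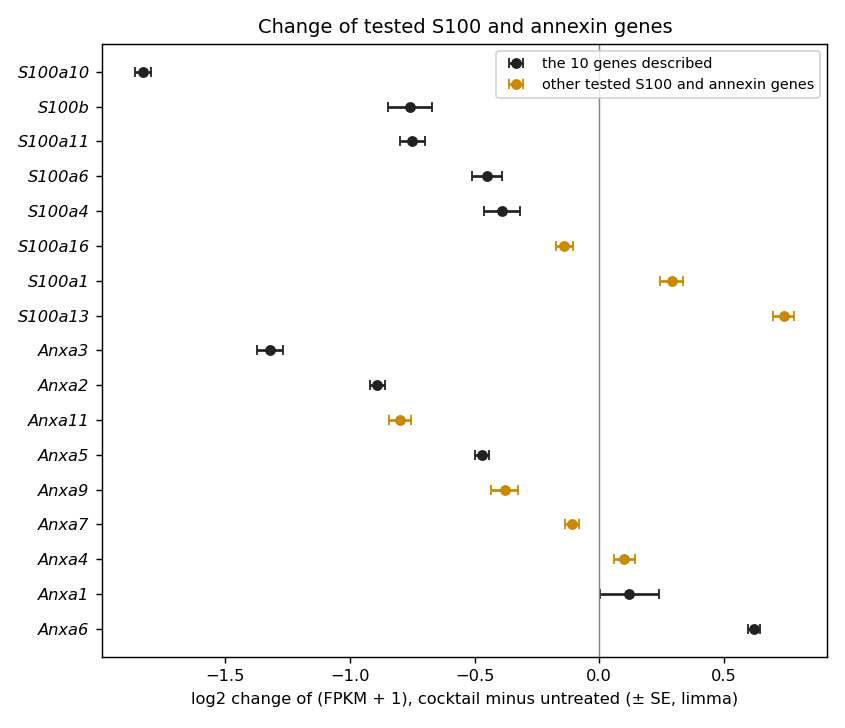
Change of the 17 tested S100 and annexin genes as the log2 of FPKM + 1, cocktail minus untreated (horizontal axis), with the standard error from limma as the bar, each family sorted by its change. S100a10 at -1.83 and Anxa3 at -1.32 lay farthest to the left, and S100a13 at 0.74 and Anxa6 at 0.62 farthest to the right.

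Of 14 genes whose proteins bind the members 11 were tested, of which 5 fell, 2 rose and 4 did not pass. Over all genes tested 67.7% were called (41.1% lower and 26.6% higher), and the median log2 change was -0.05 both over these 11 and over all genes, so these counts say nothing particular of the partners. Dysf, the membrane repair protein dysferlin, fell to 9.01 ± 0.324 FPKM in cocktail cells, against 19.0 ± 0.322 FPKM in untreated cells (SD, n = 4 each; log2 change -1.0, limma adjusted p = 2.0e-10). Myh9, the myosin chain that S100A4 binds, had 80.8 ± 1.61 FPKM in cocktail and 123 ± 6.37 FPKM in untreated cells (SD, n = 4 each; log2 change -0.60, limma adjusted p = 2.3e-08). Ahnak, a giant scaffold held by the complex of S100A10 and annexin A2, had 54.8 ± 2.34 FPKM in cocktail and 75.3 ± 2.93 FPKM in untreated cells (SD, n = 4 each; log2 change -0.45, limma adjusted p = 4.6e-07). Plgrkt, a plasminogen receptor, rose to 18.8 ± 0.631 FPKM in cocktail cells, against 12.2 ± 0.670 FPKM in untreated cells (SD, n = 4 each; log2 change 0.59, limma adjusted p = 1.4e-07). Cacybp, the binding partner of S100A6, had 41.9 FPKM in cocktail and 40.6 FPKM in untreated cells and did not pass (limma, adjusted p = 0.37).

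Of 8 receptor genes for S100 proteins and annexin A1, 6 were tested, of which 3 rose, 2 fell and 1 did not pass, where 67.7% of all genes tested were called. Ager, the receptor for advanced glycation end products that S100B binds, had 1.50 ± 0.284 FPKM in cocktail and 0.764 ± 0.283 FPKM in untreated cells (SD, n = 4 each; limma, adjusted p = 0.0018). Every cocktail library reached 1 FPKM, but of the untreated libraries only library 1 did, at 1.12 FPKM. These levels rested on 49 to 81 fragments in cocktail and 19 to 47 fragments in untreated libraries. The log2 change was 0.51, and 1.02 in limma voom on whole fragments. Tlr4 had 2.88 FPKM in cocktail and 2.14 FPKM in untreated cells (limma, adjusted p = 8.4e-04). Alcam fell, with 4.55 FPKM in cocktail and 5.94 FPKM in untreated cells (limma, adjusted p = 0.0012). Fpr1, a formyl peptide receptor of myeloid cells, had 1.20, 1.41, 4.09 and 6.00 FPKM in cocktail libraries, against 1.64, 1.02, 0.602 and 0.879 FPKM in untreated libraries. The groups overlapped, and Fpr1 was high in the same cocktail libraries as the sum of the microglial markers. It was called over all libraries (log2 change 0.89, limma adjusted p = 0.028) but not without cocktail library 3 (0.082), cocktail library 4 (0.064), untreated library 2 (0.051), 3 (0.076) or 4 (0.057), with no filter on low values (0.067), in a robust fit (0.093), or without cocktail libraries 3 and 4 (log2 change 0.20, adjusted p = 0.29).

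Membrane repair is a process in which annexins are known to act. All 12 genes of that list were tested, of which 5 fell, 4 rose and 3 did not pass, near the shares over all genes tested (41.1% lower and 26.6% higher). Besides Dysf, which is in this list too, Ehd2 fell to 14.2 ± 0.243 FPKM in cocktail cells, against 24.2 ± 1.05 FPKM in untreated cells (SD, n = 4 each; limma, adjusted p = 3.9e-09). Capn2, a calpain protease, fell to 55.3 ± 0.835 FPKM in cocktail cells, against 91.2 ± 2.01 FPKM in untreated cells (SD, n = 4 each; limma, adjusted p = 2.9e-10). Ehd1, an endocytic recycling protein, rose to 45.1 ± 0.912 FPKM in cocktail cells, against 28.1 ± 0.794 FPKM in untreated cells (SD, n = 4 each; limma, adjusted p = 1.7e-09).

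Of 16 other EF-hand calcium sensors 11 were tested, of which 7 fell, 1 rose and 3 did not pass, where 41.1% of all genes tested were lower and 26.6% higher. Their median log2 change was -0.25. Calm2 had 161 FPKM in cocktail and 203 FPKM in untreated cells (log2 change -0.34, limma adjusted p = 3.9e-07). Ncs1, neuronal calcium sensor 1, had 9.56 FPKM in cocktail and 14.8 FPKM in untreated cells (log2 change -0.58, limma adjusted p = 8.3e-08). Efhd1, a mitochondrial sensor, had 0.240 FPKM in cocktail and 1.21 FPKM in untreated cells (log2 change -0.84, limma adjusted p = 1.6e-06), and like S100b it passed the filter through the untreated libraries alone.

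Among all genes tested, the pattern over the 8 libraries most like that of S100a10 by Pearson's r of log2(FPKM + 1) was that of Fam84b (0.9995), Phf19 (0.9994) and Mamdc2 (0.9994). Most like Anxa6 were Cxcl2 (0.9997), Tifa (0.9996) and Selp (0.9995). The split into 2 groups carries these values, since 619 genes had an r above 0.99 with S100a10 and 501 with Anxa6.

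Markers of other cells were also measured, since several of the members are expressed outside astrocytes. The counts below stand beside 41.1% of all genes tested called lower and 26.6% called higher. Of 8 fibroblast and meningeal markers 7 were tested, of which Dcn, Lum and Pdgfra rose, and Islr, Col1a1 and Col1a2 fell. Lum passed the filter through the cocktail libraries alone. The summed level of the 8 markers was 237 to 257 FPKM in cocktail and 403 to 442 FPKM in untreated libraries, most of it from Islr, which had 160.2 FPKM in cocktail and 311 FPKM in untreated cells, and Slc6a13 was under 1 FPKM everywhere. Of 6 ependymal markers all 4 tested fell, of which Ccdc153 passed the filter through the untreated libraries alone, with sums of 73.3 to 86.6 FPKM in cocktail and 129 to 144 FPKM in untreated libraries, and Tmem212 and Dnah11 were under 1 FPKM everywhere. All 4 tested mural markers fell, of which Rgs5 passed the filter through the untreated libraries alone, with sums of 125 to 139 FPKM in cocktail and 559.7 to 630.3 FPKM in untreated libraries, most of it from Acta2, which had 107 to 118 FPKM in cocktail and 534 to 605 FPKM in untreated libraries. Of 7 markers of the oligodendrocyte lineage 3 of 4 tested fell (sums of 94.0 to 98.8 FPKM in cocktail and 166 to 175 FPKM in untreated libraries), with Mog at 0 in every library. Cspg4, which fell, is counted in both the mural and the oligodendrocyte list. Of 6 neuronal markers 2 of 3 tested fell (sums of 49.4 to 56.0 FPKM in cocktail and 139 to 157 FPKM in untreated libraries), with Rbfox3 and Snap25 under 1 FPKM everywhere. All 5 endothelial markers were under 1 FPKM everywhere, and of 7 neutrophil and monocyte markers only S100a8 reached 1 FPKM. The fibroblast, ependymal, mural, oligodendrocyte and neuronal sums were lower with the cocktail, although Dcn, Lum and Pdgfra were higher, and their part in the falls of the 8 members was not tested.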

How the data were processed

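RNA from 8 libraries was extracted with TRIzol and sequenced after a stranded mRNA kit, per the labels' protocols. The authors deposited FPKM values for 21878 genes. DESeq and mm10 are named in the submitters' processing notes. Aligner, counter and use of strand: not given in the sources used here. Groups and numbers follow the sample titles, since the treatment field of 3 cocktail libraries writes C1q with another digit.

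Low FPKM values were whole multiples of 1 fragment, so fragments could be recovered for 16557 of 16557 genes detected in 2 or more libraries, to a relative tolerance of 1e-11. limma (version 3.58.1, R 4.3.3) was fitted to log2(FPKM + 1), with its trend option, for the 11845 genes that reached 1 FPKM in 4 or more of the 8 libraries, and was tested on simulated data. Changes are cocktail minus untreated, and a change on this scale understates that of low genes. Partner ratios were tested by exact two-sided permutation.

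The members and the gene lists were chosen with earlier results of these data known. Named were all members, every tested gene of both families, at most 4 called genes of each further list by size of change, and the 3 genes most like the members with the largest rise and fall. A gene that this rule names is not reported here. Cacybp, Htr1b, the genes below the filter and the motifs were chosen after their values were seen. Alternatives were a pseudocount of 0.1, no filter, median-ratio rescaling, no trend, a robust fit, a replicate block, limma voom on the recovered fragments, and leaving out libraries. Counting intervals cover counting error only.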

Additional observations from a re-analysis of the deposited data

Results flagged for a closer look

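S100a8, which encodes a subunit of calprotectin in myeloid cells, did not pass the filter of the test but was higher in every cocktail library than in any untreated one. It had 0.762, 1.19, 1.12 and 1.26 FPKM in cocktail libraries (mean 1.08 FPKM), against 0.131, 0.133, 0.127 and 0 FPKM in untreated libraries. These values are 34 fragments over the cocktail libraries and 3 over the untreated ones, a ratio of 11.2 with an exact 95% interval of 3.52 to 57.0 for counting error only. S100a9, which encodes the other subunit, was at 0 in every cocktail library and above 0 in untreated library 1 alone, at 0.393 FPKM. The difference was not tested. None of the 34 groups of 4 libraries examined for a library far from the others, over the 17 tested S100 and annexin genes, held one.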

How the results depend on the processing

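Under all 17 alternatives the falls of S100a4, S100a6, S100a10, S100a11, S100b, Anxa2, Anxa3 and Anxa5 and the rise of Anxa6 kept their direction and their call. The log2 change ranged from -1.87 to -1.77 for S100a10, from -1.38 to -1.25 for Anxa3 and from 0.60 to 0.68 for Anxa6. The number of members called higher was 2 with the replicate block and 2 without cocktail libraries 1 and 2, the second being Anxa1 in both (limma, adjusted p = 0.035 with the block). The cause was not tested. The block shifted the calls over all genes to 3121 higher and 4829 lower, against 3151 and 4872 without it. Deviations of libraries with the same number correlated at -0.04, 0.08, 0.09 and -0.01. Pairing cannot be settled by these values, and the labels do not say if the numbers pair the libraries. Leaving out 1 library gave 8 members lower and 1 higher each time. For the ratio of S100a10 to Anxa2 the difference was -1.01 to -0.93 when 1 library was left out, and -0.92 and -1.03 without cocktail libraries 1 and 2 or 3 and 4. For S100a11 to Anxa1 it was -1.0 to -0.72 when 1 library was left out, and -1.20 and -0.55 without those pairs. With 1 pair left out the smallest exact p is 0.0667, so neither ratio could pass. Without untreated library 1 or 2 the exact permutation p for S100a11 to Anxa1 was 0.0571. Of the 28 called genes of the partner, receptor, membrane repair and sensor lists, 4 lost their call under some alternative: Fpr1 in 8, Sri in 2, and Bsg and Pdcd6ip in 1 each. S100b rests on few fragments, and levels near 1 FPKM limit what can be tested. On recovered fragments limma voom called 3164 genes higher and 4909 lower, and rescaling called 4088 higher and 4118 lower.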

Other observations

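S100g, a gene of the X chromosome that encodes the calcium-buffering protein calbindin-D9k, had 3 fragments over the cocktail libraries and 24 over the untreated libraries, a ratio of 0.124 with an exact 95% interval of 0.0238 to 0.407 for counting error only. Anxa8 did not pass the filter, with 0.635 to 0.852 FPKM in cocktail and 0.0822 to 0.635 FPKM in untreated libraries. Htr1b, a serotonin receptor whose protein S100A10 binds, had 1.11 ± 0.312 FPKM in cocktail and 0.435 ± 0.0686 FPKM in untreated cells (SD, n = 4 each) and did not pass the filter, so no test was made. The 10 members together held 0.180% ± 0.00371 of all fragments in cocktail and 0.250% ± 0.00649 in untreated libraries (SD, n = 4 each).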
